A study of Homo sapiens with 9 samples.

Results

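Proteasome subunits and their regulators were followed across 9 RNA sequencing libraries of human cells. The set comprised 45 of the 18064 gene rows in the deposited table, chosen by gene symbol alone: protein-coding genes named PSMA to PSMG followed by a digit, without the immunoproteasome subunits PSMB8, PSMB9 and PSMB10. It held 14 subunits of the 20S core, 17 subunits of the 19S regulatory particle, 4 activators, 1 inhibitor, 3 chaperones of 19S base assembly and 4 chaperones of 20S assembly. A further 2 rows, PSMC3IP and PSME3IP1, match the names but encode proteins that are not part of the particle. PSMA8 and PSMB11 also fit the pattern and were not analysed here. SEM1 and ADRM1, subunits of the 19S particle with other symbols, lie outside the set.

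The library titles give the cells as MDA-MB-231/PTX, a form of the breast cancer cell line MDA-MB-231 made resistant to paclitaxel. There were 3 libraries with a control siRNA (si-NC), 3 with a first siRNA against the RNA BCLIN25 (si1-BCLIN25) and 3 with a second (si2-BCLIN25). The treatment protocol names the same cells and RNA as the titles. The source name and the sample characteristics instead give PC9/GR, a lung adenocarcinoma line resistant to gefitinib, and HUMT shRNA. The labels thus differ on the cells, the RNA knocked down and the use of siRNA or shRNA, and the groups here follow the titles. BCLIN25 was not analysed here, so its knockdown was not checked, and the labels give no dose or time of treatment.

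The proteasome is the main protease of the cytosol and nucleus for proteins tagged with ubiquitin. Its 20S core is a barrel of alpha rings outside and beta rings inside, with the active sites on beta subunits, and the 19S particle on its ends binds ubiquitin chains, removes them and unfolds the substrate with a ring of ATPases. The PA28 and PA200 activators can take the place of the 19S particle, and the core is the target of cancer drugs such as bortezomib.

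Values were FPKM, fragments scaled to transcript length and library total, so depth is unknown. FPKM summed to 394081 to 419025 per library, and the number of genes at or above 1 FPKM was 11812 to 11856 per si-NC library and 12091 to 12139 per siRNA library. Of 10 markers of MDA-MB-231, 9 reached 1 FPKM in every library and ZEB1, a mesenchymal transcription factor, did not, at 0.02 to 0.14 FPKM. All 6 epithelial markers did, and the summed level of those 6 was 1629 to 1707 FPKM with si-NC, 2383 to 2577 with si1-BCLIN25 and 2334 to 2420 with si2-BCLIN25. Of it, KRT19 made up 654 to 724, 1588 to 1736 and 1515 to 1589 FPKM, and the other 5 summed to 975 to 999 FPKM, 795 to 841 and 819 to 831 in the same order. Those 5 did not move together: KRT8, KRT18 and EPCAM were lower in every siRNA library, and CDH1 and ESRP1 were higher. CDH1 was 31.4 to 32.4 FPKM with si-NC and 43.8 to 46.5 in the siRNA libraries. ESRP1 was 51.2 to 54.8 and 69.3 to 76.1 FPKM. The MDA-MB-231 markers summed to 1143 to 1155, 753 to 769 and 815 to 829 FPKM, although 2 of them were higher in every siRNA library: CAV1, at 273 to 294 with si-NC and 359 to 388 FPKM in the siRNA libraries, and LGALS1, at 32.8 to 34.1 and 147 to 165 FPKM. Of 4 lung adenocarcinoma markers, 0 reached 1 FPKM in every library. Reaching 1 FPKM does not settle which cells these are, and the identity of the cells was not tested. Among the MDA-MB-231 markers, VIM was 80.5 to 81.3 FPKM with si-NC and 13.5 to 22.6 in the siRNA libraries. MSN was 71.5 to 73.6 and 3.85 to 4.57 FPKM. The part of these shifts in the results was not tested, and in bulk RNA fewer cells of a type and less RNA per cell cannot be told apart. The control columns of the table carry a name prefix that the siRNA columns lack, so handling and group cannot be told apart either. Whether replicates were separate cultures is not stated, and the p-values then cover the spread between these samples alone, which may be technical.

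Both siRNA groups had higher PSMA6, PSME1 and PSME2 and lower PSMD2, PSMD14, PSME4 and PSMF1 than si-NC, each by 0.43 to 0.68 on the log2(FPKM + 1) scale. In si1-BCLIN25, 9 members rose and 12 fell, and 24 did not pass the limma test at an adjusted p of 0.05. Of all 12317 genes tested, 63.1% passed that test, 38.4% as higher and 24.6% as lower; the members' share, 21 of 45, lay below that. In si2-BCLIN25, 9 members rose, 15 fell and 21 did not pass, where 63.0% of all genes passed, 38.6% higher and 24.4% lower. The same 7 members rose in both siRNA groups (33.8% of all genes did) and the same 10 fell in both (20.9% of all genes did). No member changed by 2-fold, and the median log2 fold change of the 45 was -0.01 and -0.06, beside 0.06 for all genes in each comparison. With 1 library left out, the member medians ranged from -0.027 to 0.0099 and from -0.075 to -0.019; the first was above 0 without si-NC replicate 1 or si1-BCLIN25 replicate 1, and the second was nearest 0 without si-NC replicate 1. Both comparisons share the si-NC libraries, so they are not independent. Without si-NC replicate 1, 14 members rose with si2-BCLIN25, where 4522 of 12224 genes did. In both groups 11 members rose, and the share of all genes was not computed for that setting. Median centring of the libraries gave 7 rises and 17 falls for si1-BCLIN25, and 7 rises and 20 falls for si2-BCLIN25. Of all 12317 genes, 4000 then rose and 3671 fell for si1-BCLIN25, and 4005 rose and 3701 fell for si2-BCLIN25. Of all genes called against si-NC, 60.9% and 61.3% were higher in the 2 comparisons as deposited, and 50.1% and 50.7% after quantile normalization.

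**Figure D1:**
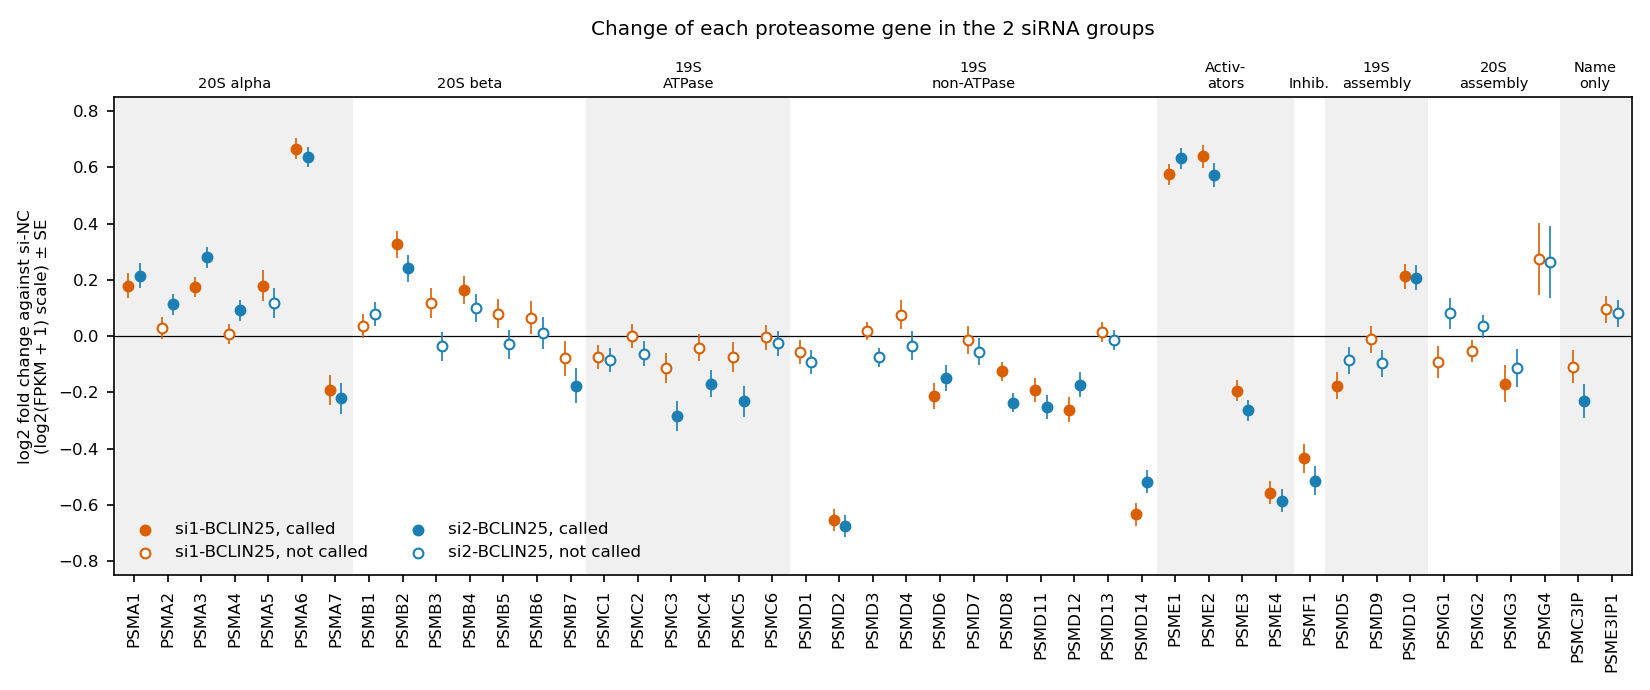
Log2 fold change on the log2(FPKM + 1) scale of each of the 45 genes for si1-BCLIN25 and si2-BCLIN25 against si-NC, ordered by role, with bars of 1 SE and filled points where the limma test was passed. PSMA6, PSME1 and PSME2 lie highest, PSMD2, PSMD14, PSME4 and PSMF1 lowest, and no gene reaches a change of 2-fold.

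The alpha subunits, which form the outer rings and the gate of the core, included PSMA6, one of the largest rises of the set. PSMA6 (gene 5687, chromosome 14) measured 195, 187 and 196 FPKM in the si-NC libraries, 299.6, 303 and 316 with si1-BCLIN25 and 297, 295 and 308 with si2-BCLIN25. Every siRNA library was above every control library. The means were 193 ± 5.07, 306 ± 8.52 and 300.1 ± 7.26 FPKM (SD, n = 3 each). The log2 fold change was 0.67 with si1-BCLIN25 and 0.64 with si2-BCLIN25 (SE 0.04 for both, limma adjusted p = 1.06e-08 and 1.72e-08). PSMA6 overlaps the annotated read-through gene PRORP-PSMA6 and has 4 pseudogenes named for it, and how the authors' counting split such reads is not given.

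Smaller rises were found in other alpha subunits. PSMA3 measured 85.8, 88.8 and 83.1 FPKM with si-NC, 99.2, 96.0 and 95.8 with si1-BCLIN25 and 102, 106 and 105 with si2-BCLIN25. Control and siRNA libraries did not overlap, and the log2 fold changes were 0.17 and 0.28 (limma adjusted p = 0.0011 and 2.53e-05). PSMA3 overlaps the antisense gene PSMA3-AS1, and the sources do not say whether strand was used. PSMA1 rose by 0.18 and 0.21 on the log2 scale. PSMA5, the least abundant core subunit, rose by 0.18 with si1-BCLIN25 and had a log2 difference of 0.12 with si2-BCLIN25 (limma adjusted p = 0.0724), and the first call was lost under median centring (limma adjusted p = 0.0599). PSMA2 and PSMA4 passed the test with si2-BCLIN25 alone, with log2 fold changes of 0.11 and 0.09. Without si-NC replicate 3 neither did: the limma adjusted p was 0.0682 for PSMA2 and 0.0556 for PSMA4. PSMA2 also lost its call under median centring (limma adjusted p = 0.202) and without si2-BCLIN25 replicate 3. PSMA4 lost its call in 10 of 17 alternatives: without si-NC replicate 2 or 3, without si1-BCLIN25 replicate 3, without any 1 of the si2-BCLIN25 replicates, under median centring (limma adjusted p = 0.378), without the trend, with a replicate block (limma adjusted p = 0.0586) and in the fit to the groups compared.

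PSMA7 (chromosome 20) was the alpha subunit that fell. Its levels were 248, 271 and 245 FPKM with si-NC, 239, 217 and 214 with si1-BCLIN25 and 223, 207 and 225 with si2-BCLIN25. All 6 siRNA libraries were below the lowest control, with log2 fold changes of -0.19 and -0.22 (limma adjusted p = 0.00803 and 0.00321). Of the 7 alpha subunits, 4 were higher and 1 was lower for si1-BCLIN25 (38.4% and 24.6% of all genes), and 5 were higher and 1 was lower for si2-BCLIN25 (38.6% and 24.4% of all genes).

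Of the 7 beta subunits, which include those with the proteolytic sites, 2 rose with si1-BCLIN25, and 1 rose and 1 fell with si2-BCLIN25, where 63.1% and 63.0% of all genes passed the test. PSMB2, a structural subunit of the inner ring, measured 48.2, 46.0 and 41.7 FPKM with si-NC, 55.7, 57.2 and 58.0 with si1-BCLIN25 and 53.8, 52.4 and 54.8 with si2-BCLIN25. It was higher in all siRNA libraries, by 0.33 and 0.24 on the log2 scale (limma adjusted p = 7.47e-05 and 0.000795). The catalytic subunits PSMB5 (chymotrypsin-like) and PSMB6 (caspase-like) did not pass the test in either comparison, with log2 differences of 0.08 and -0.03 for PSMB5 and 0.07 and 0.01 for PSMB6. PSMB7 (trypsin-like) fell by 0.18 on the log2 scale with si2-BCLIN25 alone (limma adjusted p = 0.0276). That call was lost without si-NC replicate 1 (limma adjusted p = 0.108), without si2-BCLIN25 replicate 2 or 3, and with no filter on low values. PSMB4 rose by 0.16 with si1-BCLIN25 alone, with overlapping libraries, and the call was lost without si-NC replicate 3 (limma adjusted p = 0.0528) and under median centring (limma adjusted p = 0.0778). PSMB1 and PSMB3 passed in neither comparison.

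The 3 immunoproteasome subunits stand outside the set by its rule and replace PSMB5, PSMB6 and PSMB7 in the interferon-induced form of the core. PSMB8, the counterpart of PSMB5, measured 21.4, 21.2 and 18.2 FPKM with si-NC, 32.0, 34.5 and 36.0 with si1-BCLIN25 and 32.9, 33.9 and 30.5 with si2-BCLIN25. Its share of PSMB8 plus PSMB5 was 18.9% to 20.2% with si-NC, 26.9% to 29.4% with si1-BCLIN25 and 27.3% to 29.9% with si2-BCLIN25. PSMB9, the counterpart of PSMB6, took 5.14% to 7.87%, 13.6% to 16.2% and 14.7% to 17.01% of PSMB9 plus PSMB6. The standard subunits therefore kept the more abundant transcripts in all libraries, and protein was not measured. PSMB8 rose by 0.73 and 0.65 on the log2 scale and PSMB9 by 1.34 and 1.37 (limma), while PSMB10 did not pass.

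Of the 17 subunits of the 19S particle, 6 fell with si1-BCLIN25 and 9 with si2-BCLIN25, and 0 rose in either, while 24.6% and 24.4% of all genes fell and 38.4% and 38.6% rose. Their median log2 fold changes were -0.07 and -0.15, and the first was -0.035 without si1-BCLIN25 replicate 1 and -0.047 without si-NC replicate 1. For the 14 core subunits the counts were 6 higher and 1 lower with si1-BCLIN25, and 6 higher and 2 lower with si2-BCLIN25, near the share of rises among all genes. The core medians were 0.10 each; the first was 0.051 without si-NC replicate 3, and under median centring they were 0.051 and 0.044. Under median centring the core counts became 4 higher and 1 lower, and 4 higher and 2 lower. The 19S counts became 0 higher and 8 lower, and 0 higher and 12 lower. Of all 12317 genes, 4000 were then higher and 3671 lower with si1-BCLIN25, and 4005 and 3701 with si2-BCLIN25. Across the other settings the 19S count of rises was 0 except without si-NC replicate 1, where 1 subunit rose with si1-BCLIN25.

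PSMD2, the base scaffold that docks shuttle factors carrying ubiquitinated proteins, had one of the largest falls of the particle, beside PSMD14, and their order with si1-BCLIN25 changed without si-NC replicate 1 or si1-BCLIN25 replicate 1. Its levels (gene 5708, chromosome 3) were 176, 167 and 169 FPKM with si-NC, 103, 111 and 111 with si1-BCLIN25 and 108, 106 and 106 with si2-BCLIN25. The control libraries lay far above all siRNA libraries. The means were 171 ± 4.77, 108 ± 4.84 and 106 ± 1.21 FPKM (SD, n = 3 each), and the log2 fold changes were -0.65 and -0.68 (SE 0.04, limma adjusted p = 2.19e-08 and 1.74e-08). PSMD1, the other large scaffold of the base, did not pass the test, with log2 differences of -0.06 and -0.09. The ratio of PSMD2 to PSMD1 was 3.00 to 3.07 with si-NC, 1.96 to 2.05 with si1-BCLIN25 and 1.92 to 2.09 with si2-BCLIN25.

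PSMD14, the deubiquitinase of the lid that removes ubiquitin chains from substrates, fell as well. Its levels (gene 10213, chromosome 2) were 83.5, 84.0 and 83.0 FPKM with si-NC, 56.9, 52.8 and 50.9 with si1-BCLIN25 and 57.0, 57.7 and 59.3 with si2-BCLIN25. Control and siRNA libraries did not overlap, with log2 fold changes of -0.63 and -0.52 (limma adjusted p = 5.14e-08 and 3.53e-07). PSMD7, its partner in the lid, did not pass the test, at -0.01 and -0.06.

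The promoters of PSMD2 and PSMD14 are shown because these were the 19S genes with the largest falls. Each stretch covers the 100 bases before the RefSeq start (GRCh38.p14), from chr3:184299141-184299240 and chr2:161308325-161308424, both on the plus strand. Capitals mark an 8-base stretch in PSMD14 in which CCAAT, the box bound by NF-Y, is read on both strands with an overlap; the PSMD2 stretch holds neither CCAAT nor TGACNNNGC.

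PSMD2: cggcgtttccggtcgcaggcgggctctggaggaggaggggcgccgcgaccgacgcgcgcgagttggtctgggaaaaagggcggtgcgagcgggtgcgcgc

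PSMD14: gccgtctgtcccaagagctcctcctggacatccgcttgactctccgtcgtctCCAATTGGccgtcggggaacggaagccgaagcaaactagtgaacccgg

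The remaining lid and base subunits moved by less. PSMD11, a lid scaffold, measured 64.6, 63.0 and 60.0 FPKM with si-NC, 53.8, 52.6 and 57.5 with si1-BCLIN25 and 51.9, 52.4 and 52.7 with si2-BCLIN25. It fell in both comparisons, by 0.19 and 0.25 on the log2 scale, without overlap. PSMD12 fell by 0.26 and 0.17, PSMD6 by 0.21 and 0.15 and PSMD8 by 0.13 and 0.24. PSMD6 overlaps the antisense genes PSMD6-AS1 and PSMD6-AS2. Without si2-BCLIN25 replicate 1 the fall of PSMD6 with si2-BCLIN25 missed the threshold (limma adjusted p = 0.0509). PSMD3, PSMD4, the ubiquitin receptor, and PSMD13 passed in neither comparison.

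The 6 ATPases that unfold substrates and open the core did not pass with si1-BCLIN25, where 63.1% of all genes passed. In si2-BCLIN25, 3 of these ATPases fell, beside 24.4% of all genes: PSMC3 by 0.29, PSMC5 by 0.23 and PSMC4 by 0.17 on the log2 scale. PSMC3 measured 134, 123 and 123 FPKM with si-NC, 107, 122 and 123 with si1-BCLIN25 and 104, 103 and 104 with si2-BCLIN25, so si2-BCLIN25 lay below every library of the other 2 groups. The direct comparison of the siRNA groups called 0 of the 45 members with limma, where 0.585% of all genes were called. An unadjusted limma p under 0.05 was found for 12 members, and for 2187 of all 12317 genes tested. Without si1-BCLIN25 replicate 1, PSMC3 alone was called between the siRNA groups (limma adjusted p = 0.0452).

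**Figure D2:**
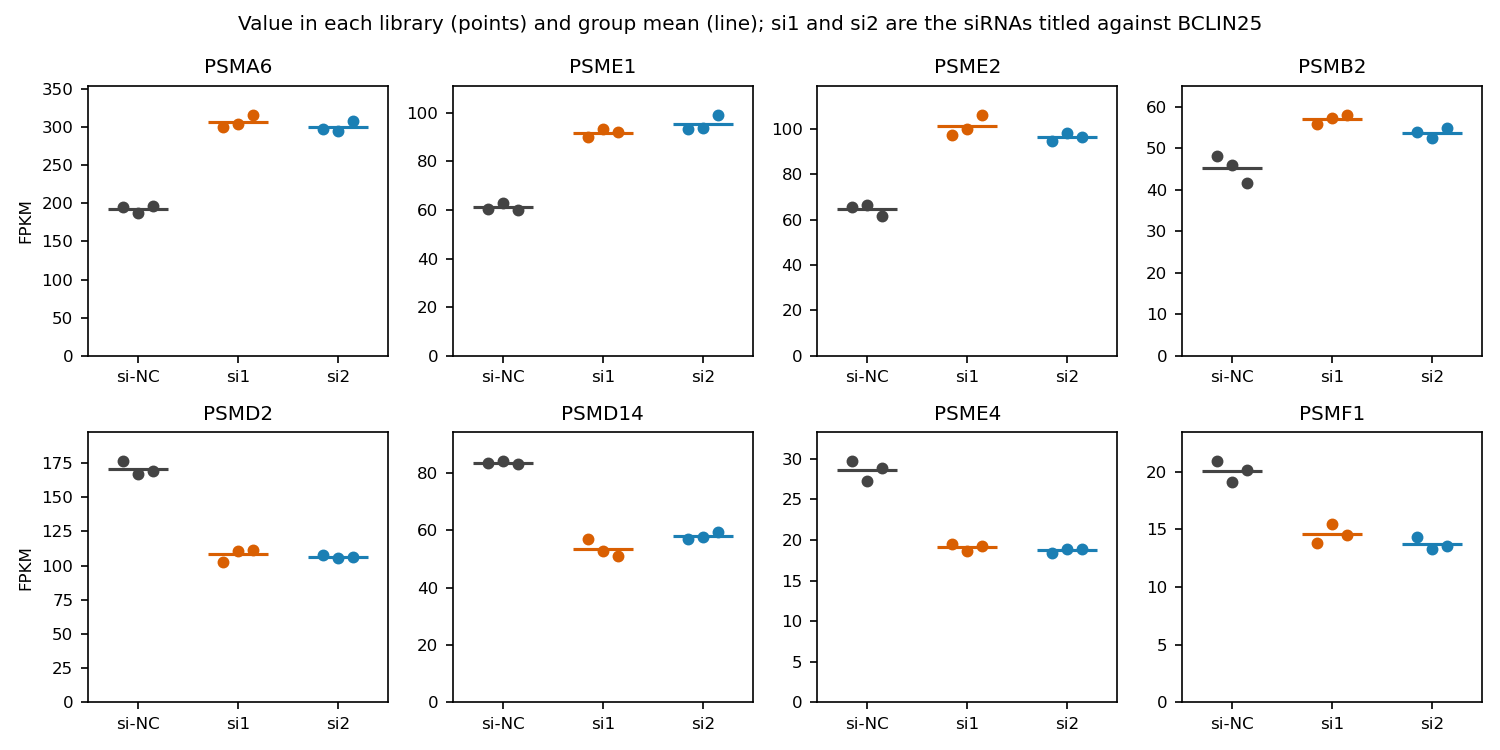
FPKM of selected proteasome genes in each of the 9 libraries, with 3 points and a line at the mean for si-NC, si1-BCLIN25 and si2-BCLIN25. For PSMA6, PSMD2, PSMD14, PSME1, PSME2, PSME4 and PSMF1 the siRNA libraries do not overlap the controls.

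Summed over its 14 subunits, the 20S core held 1900 to 2018 FPKM with si-NC, 2087 to 2164 with si1-BCLIN25 and 2051 to 2103 with si2-BCLIN25. The 17 subunits of the 19S particle summed to 1448 to 1535, 1296 to 1369 and 1270 to 1294 FPKM. The ratio of the sums was therefore 1.31 to 1.33 with si-NC, 1.56 to 1.62 with si1-BCLIN25 and 1.61 to 1.66 with si2-BCLIN25. Without PSMA6, PSMD2 and PSMD14 it was 1.43 to 1.45, 1.52 to 1.58 and 1.59 to 1.63, so the siRNA libraries again lay above every control, by a smaller gap. The core sum without PSMA6 overlapped between groups, at 1704 to 1823, 1783 to 1848 and 1756 to 1806 FPKM. The 19S sum without PSMD2 and PSMD14 was 1196 to 1276 FPKM with si-NC. It was 1137 to 1207 with si1-BCLIN25, which overlapped the controls, and 1106 to 1129 with si2-BCLIN25, which did not. These ratios were chosen after the values were seen and carry no test. SEM1 and ADRM1 are in none of these sums and ratios. SEM1 had means of 274 FPKM with si-NC, 284 with si1-BCLIN25 and 277 with si2-BCLIN25. The 43 members that belong to the particle or its assembly made up 0.973% to 0.998% of all FPKM with si-NC, 0.944% to 0.972% with si1-BCLIN25 and 0.943% to 0.956% with si2-BCLIN25.

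**Figure D3:**
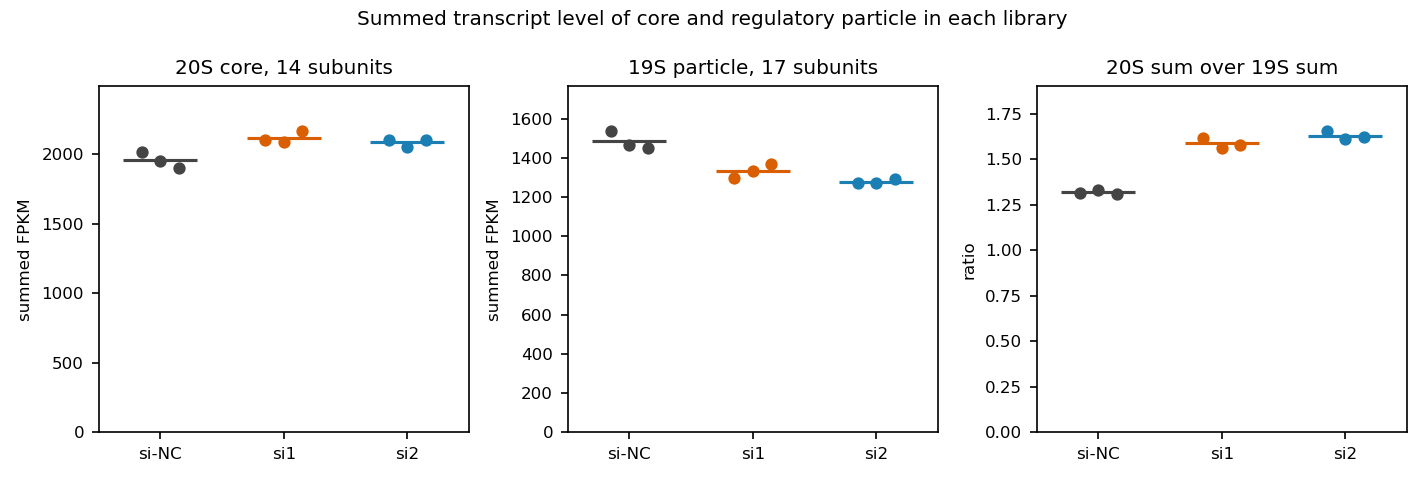
Summed FPKM of the 14 core subunits, of the 17 19S subunits in the set and the ratio of the sums in each library. Lines mark group means. The ratio lies between 1.31 and 1.33 with si-NC and between 1.56 and 1.66 in the siRNA libraries.

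Levels of single subunits differed widely within each particle, although assembled particles hold them in equal numbers. In si-NC the core ranged from PSMB7 at 268 and PSMA7 at 255 FPKM to PSMB2 at 45.3 and PSMA5 at 26.6, a ratio of 10.1 between the ends. Of the 13 pairs of neighbours in that order, 6 overlapped in their libraries. The 19S subunits in the set ranged from PSMD2 at 171 to PSMD13 at 50.9 FPKM, a ratio of 3.35. Of their 16 neighbouring pairs, 9 overlapped. SEM1, outside the set, had a higher mean than these with si-NC, at 274 FPKM. In the siRNA groups PSMA6 had the highest mean of the core, at 306 and 300.1 FPKM. Among the 19S subunits in the set the highest was PSMC5 with si1-BCLIN25, at 136 FPKM, and PSMC1 with si2-BCLIN25, at 122 FPKM.

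**Figure D4:**
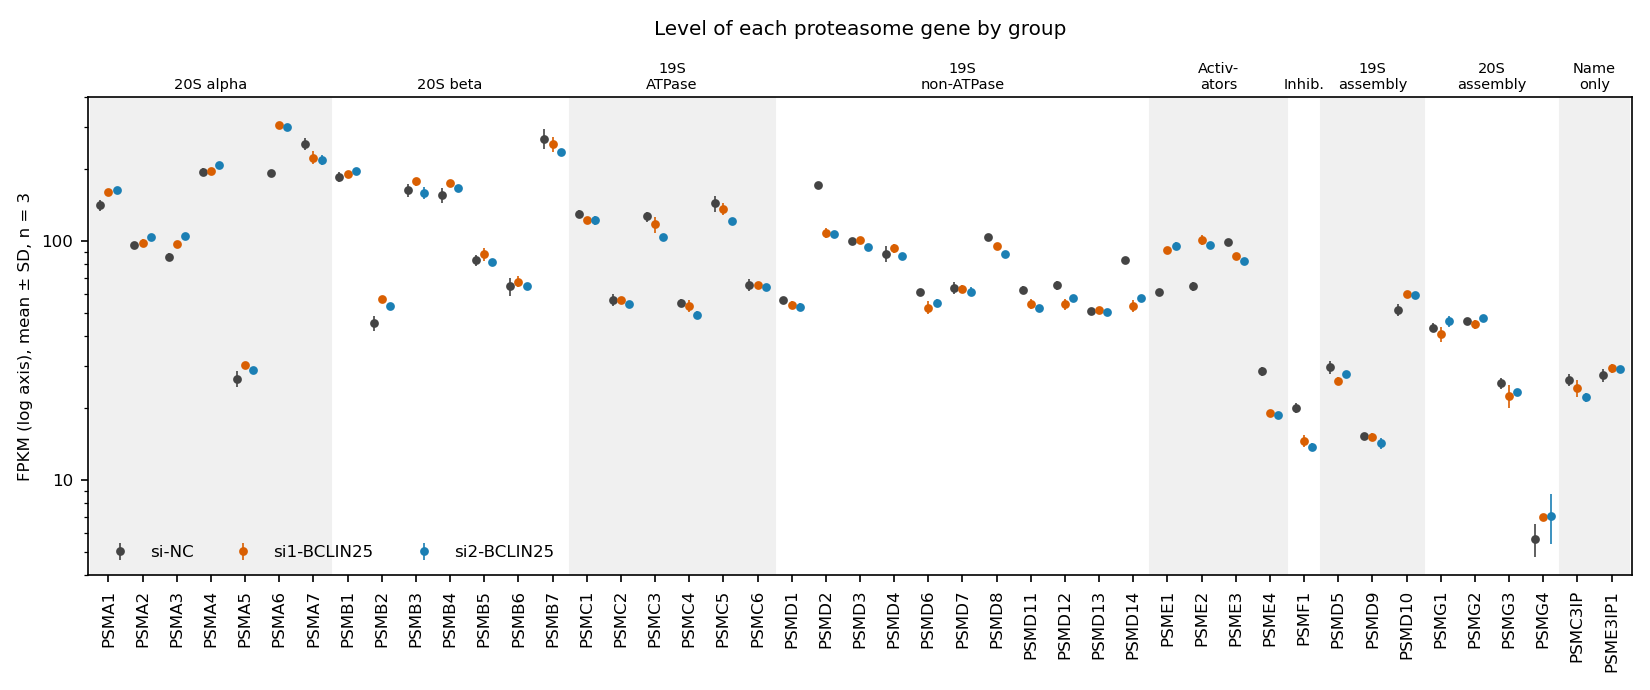
Mean FPKM of each of the 45 genes with si-NC, si1-BCLIN25 and si2-BCLIN25, on a log axis and grouped by role, with bars of 1 SD over 3 libraries. Core subunits with si-NC run from 26.6 to 268 FPKM and the 19S subunits in the set from 50.9 to 171 FPKM.

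The activators split. PSME1 and PSME2, the alpha and beta subunits of PA28, which is induced by interferon gamma and aids the making of peptides for antigen presentation, rose. PSME1 measured 60.6, 63.0 and 60.2 FPKM with si-NC, 89.96, 93.2 and 92.1 with si1-BCLIN25 and 93.4, 94.0 and 99.2 with si2-BCLIN25. PSME2 measured 65.5, 66.5 and 61.7, then 97.3, 100.05 and 106, then 94.7, 98.2 and 96.5 FPKM. No siRNA library overlapped a control. The log2 fold changes were 0.57 and 0.63 for PSME1 and 0.64 and 0.57 for PSME2 (limma adjusted p = 3.67e-08 and 1.64e-08, then 4.84e-08 and 1.40e-07). PSME2 has 6 pseudogenes named for it, which could share its reads.

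PSME3 encodes PA28 gamma, the nuclear form, and fell. It measured 102, 97.9 and 97.2 FPKM with si-NC, 84.6, 85.4 and 89.8 with si1-BCLIN25 and 83.1, 81.2 and 82.9 with si2-BCLIN25. It was lower in every siRNA library, by 0.19 and 0.26 on the log2 scale (limma adjusted p = 0.000512 and 4.28e-05). The ratio of PSME1 plus PSME2 to PSME3 was 1.23 to 1.32 with si-NC, 2.21 to 2.26 with si1-BCLIN25 and 2.26 to 2.37 with si2-BCLIN25.

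PSME4 (chromosome 2), which encodes PA200, a nuclear activator linked to acetylated histones, fell further. It measured 29.7, 27.2 and 28.8 FPKM with si-NC, 19.5, 18.7 and 19.2 with si1-BCLIN25 and 18.4, 18.9 and 18.8 with si2-BCLIN25. Control and siRNA libraries did not overlap, with log2 fold changes of -0.56 and -0.58 (limma adjusted p = 1.64e-07 and 1.09e-07). PSMF1 (chromosome 20), the PI31 protein, which inhibits the core in vitro, measured 20.9, 19.1 and 20.2, then 13.8, 15.5 and 14.5, then 14.3, 13.3 and 13.5 FPKM. It fell by 0.43 and 0.51 on the log2 scale, again without overlap (limma adjusted p = 1.27e-05 and 2.94e-06).

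Upstream sequence of PSME1 and PSME2, neighbours on chromosome 14 that rose together, is shown as read from RefSeq (GRCh38.p14), with the bases counted from the start of the gene. Capitals mark 2 kinds of match: TGACNNNGC, the core of the antioxidant response element through which NRF1 acts on proteasome genes, and a pair of GAAA runs with any 2 bases between them, as in interferon-stimulated response elements, searched after the values were seen. The PSME1 stretches lie at chr14:24136074-24136193 and chr14:24136184-24136213 on the plus strand, the PSME2 stretch at chr14:24146611-24146800 on the minus strand, and the PSME4 stretch at chr2:53970994-53971093 on the minus strand.

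PSME1 upstream: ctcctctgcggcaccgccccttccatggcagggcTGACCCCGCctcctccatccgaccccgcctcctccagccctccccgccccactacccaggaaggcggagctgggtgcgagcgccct

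PSME1 start: cgagcgccctaccgcTTTCGCTTTCccttc

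PSME2: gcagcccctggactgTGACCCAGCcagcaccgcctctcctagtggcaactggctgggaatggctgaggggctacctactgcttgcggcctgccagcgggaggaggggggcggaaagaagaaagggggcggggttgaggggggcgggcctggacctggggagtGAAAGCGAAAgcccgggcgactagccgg

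PSME4: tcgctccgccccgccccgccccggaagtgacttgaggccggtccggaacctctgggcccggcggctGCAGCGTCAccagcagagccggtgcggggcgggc

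In PSME1 the second motif is read on the opposite strand, at bases 6 to 15 after the start, and in PSME2 on the gene's strand at bases -28 to -19. PSME4, which fell, holds TGACNNNGC on the opposite strand. In all, 14 member genes hold this match, and whether it had a part in any change was not tested. RefSeq windows of 250 bases before to 50 after the start were found for 39 of the 45 members, 49 windows in all, and not for PSMA7, PSMB1, PSMB6, PSMB7, PSMD4 and PSMG3. TGACNNNGC was found on either strand in 28.6% of these windows and in 14.3% of 14740 windows of the genes tested. CCAAT was found in 44.9% against 34.9%, and the windows with it include those of PSMC3IP and PSME3IP1, which are not part of the particle. The GAAA pair was found in 5 windows, 10.2% against 2.81%, and TTCNNNGAA, a STAT motif also searched after the values were seen, in 12.2% against 6.21%. A match is a description and not a site in use. The 5 genes with the GAAA pair are PSMA4, PSMB4, PSME1, PSME2 and PSMG4.

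Of the 7 assembly chaperones, 1 rose and 2 fell with si1-BCLIN25, where 38.4% of all genes rose and 24.6% fell. With si2-BCLIN25, 1 rose, where 38.6% of all genes rose and 24.4% fell. PSMD10, or gankyrin, a base chaperone known as an oncoprotein in liver cancer, measured 53.6, 48.1 and 52.9 FPKM with si-NC, 57.3, 61.2 and 61.0 with si1-BCLIN25 and 60.7, 59.0 and 59.2 with si2-BCLIN25. It rose by 0.21 on the log2 scale in both comparisons (limma adjusted p = 0.00138 and 0.00156), and it overlaps the gene ATG4A. PSMD5, another base chaperone, measured 27.9, 29.4 and 31.6, then 26.4, 24.98 and 26.8, then 27.3, 28.4 and 27.8 FPKM. It fell by 0.18 with si1-BCLIN25, and its log2 difference with si2-BCLIN25 was -0.09 without a call. PSMD9, the remaining base chaperone, did not pass.

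Of the 20S chaperones PSMG1 to PSMG4, which pair and guide the alpha ring, only PSMG3 was called, at a log2 fold change of -0.17 with si1-BCLIN25 (limma adjusted p = 0.0431). The call was lost in 11 of 17 alternatives, with adjusted p-values from limma up to 0.171: when replicate 1 or 2 of si-NC, replicate 1 or 2 of si1-BCLIN25 or any replicate of si2-BCLIN25 was left out, without the filter, without the trend, with a replicate block (adjusted p = 0.0609) and in the fit to the groups compared. PSMG4, the lowest of the 45 genes, measured 6.37, 4.68 and 5.92 FPKM with si-NC, 7.11, 6.98 and 6.93 with si1-BCLIN25 and 7.12, 5.38 and 8.68 with si2-BCLIN25. Its log2 differences, 0.28 and 0.26 (SE 0.13), were larger than those of PSMD10 but did not pass (limma adjusted p = 0.0784 and 0.0898). PSMG4 did pass in 5 alternatives for si1-BCLIN25 and 3 for si2-BCLIN25, in both with a replicate block (limma adjusted p = 0.0322 and 0.0385) and without si-NC replicate 1. Of the 2 genes that match by name only, PSMC3IP, a recombination factor, fell by 0.23 with si2-BCLIN25 and PSME3IP1 passed in neither comparison.

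The libraries of the groups were separate for 20 of the 45 members with si1-BCLIN25 (64.7% of all genes) and for 25 with si2-BCLIN25 (67.1% of all genes). Of the 45 calls over both comparisons, 38 held in every alternative run.

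Several of the genes that fell lie near other genes that fell, and others had neighbours whose median was above 0. Of all genes tested, 24.6% were called lower with si1-BCLIN25 and 24.4% with si2-BCLIN25. Up to 50 tested genes nearest each member in the RefSeq order were read, members left out. Around PSMD14, from RBM43 to DCAF17, the median log2 fold change of the neighbours was -0.26 with si1-BCLIN25 and -0.20 with si2-BCLIN25, and 33 and 28 of 50 were called lower. Around PSME4, from SIX3 to B3GNT2, it was -0.22 and -0.23, and 30 and 29 of 50 were lower. Around PSMF1 it was -0.20 and -0.21, with 22 of 36 lower in both, and around PSMA7 it was -0.30 and -0.35, with 40 and 38 of 50 lower. PSMD1, also on chromosome 2, had neighbours at 0.08 in both. PSMD14, PSME4 and PSMF1 fell by more than the median of their neighbours, and PSMA7 by less. PSMD2 fell while its neighbours on chromosome 3 had a median of 0.12 in both, and 2 of 50 neighbours were lower than it. PSMD6, PSMD8, PSMD11, PSMD12 and PSME3 also fell in both comparisons, with neighbour medians of 0.015 to 0.16. PSMA6, PSME1 and PSME2 exceeded their neighbours' medians of 0.11 to 0.19. With si1-BCLIN25, 24, 27 and 28 of their 50 neighbours were called higher and 8, 2 and 1 lower. With si2-BCLIN25, 27, 23 and 24 were higher and 5, 4 and 3 lower. Of all genes, 38.4% and 38.6% were called higher. PSME1 and PSME2 lie side by side and share neighbours. Whether position had a part in these changes was not tested.

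**Figure D5:**
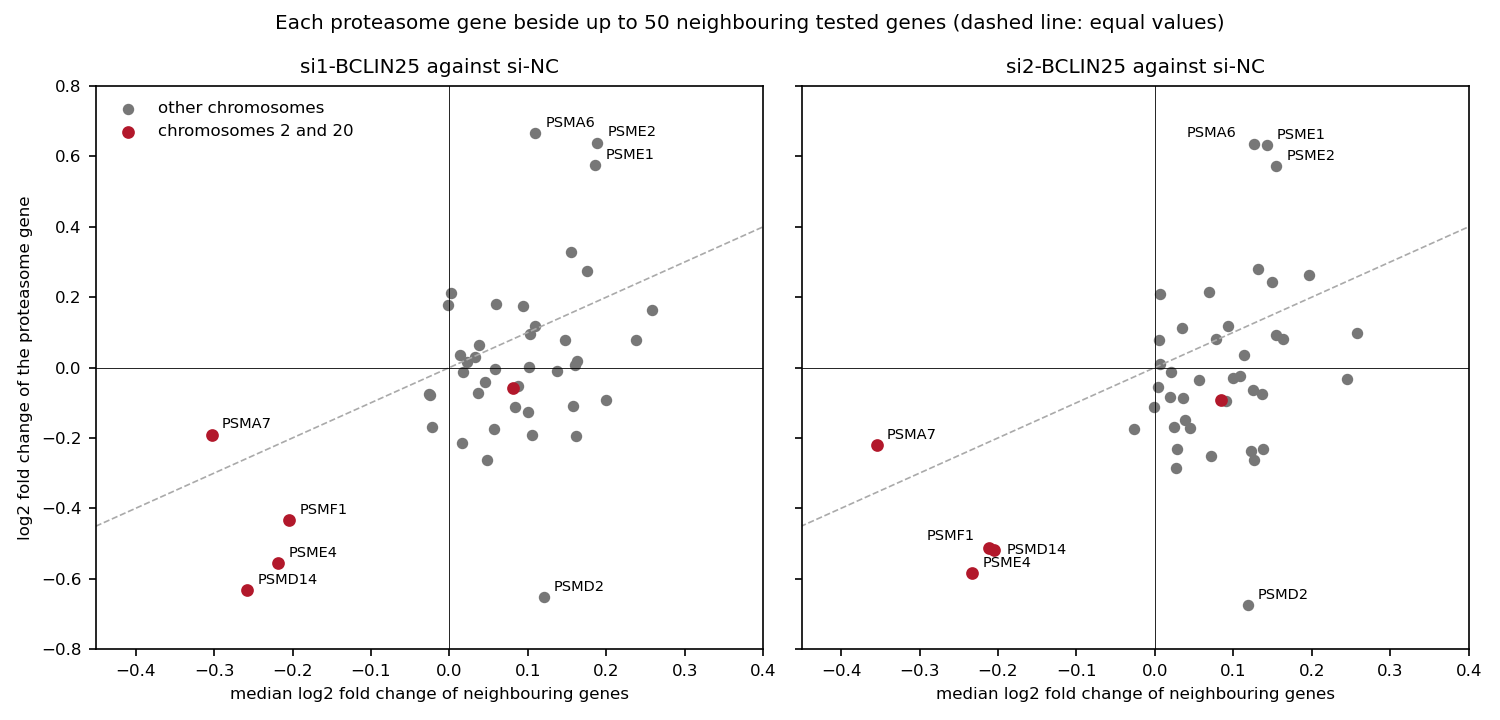
Log2 fold change of each proteasome gene (vertical) against the median of up to 50 neighbouring tested genes (horizontal), for si1-BCLIN25 and si2-BCLIN25 against si-NC, with genes of chromosomes 2 and 20 in red. PSMA7, PSMF1, PSME4 and PSMD14 lie at neighbour medians of -0.35 to -0.20, and PSMD2 lies at 0.12.

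Other genes of the pathway were read from lists chosen with earlier results of these data known, and their counts stand beside shares of all genes of 38.4% higher and 24.6% lower for si1-BCLIN25 and 38.6% and 24.4% for si2-BCLIN25. Of the 64 calls in these lists over both comparisons, 50 held in all 17 alternatives. Median centring ended, among others, the rises of USP14, BTRC, TCP1, COPS5, COPS7A and COPS7B for si2-BCLIN25. Of 14 proteasome components and partners with other symbols, 3 rose and 4 fell with si1-BCLIN25, and 3 rose and 3 fell with si2-BCLIN25. PAAF1, which holds the base ATPases in assembly, rose from 10.3 to 16.8 and 16.3 FPKM. ADRM1, a ubiquitin receptor of the 19S particle on chromosome 20, fell from 93.8 to 76.1 and 73.4 FPKM, and ZFAND5, which stimulates the 26S particle, rose from 47.5 to 57.9 and 61.8.

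Of 8 genes of NRF1 and its processing, 2 rose and 0 fell in each comparison. NFE2L1, which encodes NRF1, the factor that raises proteasome genes when the particle is inhibited, rose from 65.8 to 82.4 and 77.7 FPKM. Among 9 related CNC, small MAF and NF-Y factors, 2 rose and 5 fell with si1-BCLIN25 and 2 rose and 4 fell with si2-BCLIN25. NFE2L2, the oxidative stress factor NRF2, rose from 33.1 to 50.9 and 51.9 FPKM, and its small MAF partner MAFF fell from 13.2 to 6.86 and 6.66.

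Of 6 genes of ubiquitin and its activation, 2 rose and 2 fell with si1-BCLIN25 and 2 rose and 1 fell with si2-BCLIN25. RPS27A, which encodes ubiquitin fused to a ribosomal protein, fell from 553 to 388 and 397 FPKM. Of 6 shuttle factors 2 rose and 2 fell, then 1 rose and 1 fell. Of 9 subunits of the COP9 signalosome, a relative of the lid, 2 rose and 1 fell, then 3 rose and 4 fell, with 0 of those 3 rises held in all alternatives, and COPS8 on chromosome 2 fell from 28.2 to 21.6 and 22.3 FPKM. Of 8 subunits of the CCT chaperonin, which folds actin and tubulin, 0 rose and 5 fell, then 1 rose and 5 fell, and 4 of the falls in each comparison held in all alternatives.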

How the data were processed

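The table held FPKM values for 9 RNA sequencing libraries, the unit per the file headers of the deposited table. The submitters' processing notes list DESeq2 (1.4.5), RSEM (1.2.12), HISAT2 (2.0.4) and Bowtie2 (2.2.5) without roles, and the genome build is not given in the sources used here. Such values are scaled to length and library total, so a few abundant genes can shift all others, and depth, and with it counting error, is unknown.

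Row identifiers were matched to RefSeq (GRCh38.p14), which gave symbols for 17748 of 18064 rows. The model was fitted to log2(FPKM + 1), a scale that understates the fold changes of low genes. It covered the 12317 genes that reached 1 FPKM in 3 or more libraries, among them all 45 members, and all 9 libraries. The tool was limma 3.58.1 (R 4.3.3), with a mean-variance trend in its eBayes step. Benjamini-Hochberg adjustment ran over all genes tested, and "rose", "fell" and "called" mean an adjusted p under 0.05. Named genes were, per subunit class, up to 3 with the largest mean change called in both comparisons, and all activators, inhibitors and chaperones; other genes named were chosen after their values were seen. The model was run on simulated data with independent noise and few changed genes. That setting differs from these data, where most genes were called, so it does not show how well small changes are called here. Alternatives were a pseudocount of 0.1, no filter, a minimum of 5 FPKM, quantile normalization, median centring, no trend, a replicate block, a fit to the groups compared alone, and each library left out. The members and lists were chosen with earlier results of these data known.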

Additional observations from a re-analysis of the deposited data

How the results depend on the processing

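Of the 45 calls of members over both comparisons with si-NC, 38 held in all 17 alternatives and 0 changed direction. The count of members higher in si2-BCLIN25 was 9 and ranged from 7 to 14 when 1 library was left out, the count higher in both groups was 7 and ranged from 7 to 11, and the count called between the siRNA groups was 0 and ranged from 0 to 1. Of 45 member comparisons without a call, 16 turned in sign under at least 1 alternative; among the genes named by rule these were PSMD9 with si1-BCLIN25, which ranged from -0.035 to 0.016 when 1 library was left out (0.0085 without si-NC replicate 1), and PSMG2 with si2-BCLIN25, at -0.017 under median centring; the cause was not tested. The labels do not say whether the replicate numbers pair the libraries. Libraries with the same number had correlations of their deviations from the group means of -0.164 to 0.139. Libraries of different groups with different numbers had -0.193 to 0.218. With 3 libraries per group these correlations cannot exclude pairing. With a replicate block, 21 members were called in si1-BCLIN25 and 24 in si2-BCLIN25, as many as without it, though not the same genes: PSMG3 (si1-BCLIN25) and PSMA4 (si2-BCLIN25) lost their calls, PSMG4 gained one in both, and the members called in both groups went from 17 to 18. Of all 12317 genes, 4683 were higher and 2982 lower with si1-BCLIN25 in the block fit, and 4679 and 2947 with si2-BCLIN25. Depth is unknown, so counting error could not be computed.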
